A study of Mus musculus with 25 samples.

Results

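The Myc and Pvt1 locus of the mouse was followed through 9 lists of chromatin interactions, each a list of pairs of 10 kb bins that contacted each other more often than the authors' filters required. The region spans 370 kb of chromosome 15, from 61980001 to 62350000 (mm10, the build named in the submitters' processing notes), and holds 37 bins. It was chosen from values in these lists: the bin from 62330001 to 62340000 had 31 listed H3K27ac interactions in fibroblasts and none in embryonic stem (ES) cells. Every listed interaction with at least 1 anchor in the region was taken, which gave 383 of the 912901 interactions in all 9 lists. Because the fibroblast and ES H3K27ac lists chose the region, their difference is described here without a test.

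Myc encodes a transcription factor that drives growth, metabolism and cell division, and it is one of the factors used to reprogram somatic cells. Pvt1 is a long noncoding RNA gene that lies downstream of Myc at the edge of a large gene-poor interval. In mammals this interval holds enhancers of Myc that act in different tissues over long distances, and the Pvt1 promoter and gene body are known to take part in these contacts. H3K27ac marks active promoters and enhancers, and KLF4 is a zinc finger transcription factor of both the reprogramming cocktail and the ES cell network.

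In the RefSeq annotation (GRCm38.p6), Myc runs from 61985341 to 61990361, so that its start lies in the bin from 61980001 to 61990000 and its end in the next bin. Pvt1 runs from 62037986 to 62260215, with its start in the bin from 62030001 to 62040000, 50 kb from the Myc start bin. Myc is the 1 protein-coding gene in the region. Bins are named below by their distance from the Myc start bin: the bin that chose the region lies at 350 kb, past the end of Pvt1, and its neighbour from 62320001 to 62330000 lies at 340 kb. The pair of them is called the distal pair.

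HiChIP ligates DNA ends that are close in the nucleus and then enriches the ligated fragments with an antibody, whereas Hi-C uses no antibody. Fibroblasts (MEFs) came from E13.5 embryos heterozygous for an Oct4-GFP reporter, the OKSM cassette (Oct4, Klf4, Sox2 and Myc) and rtTA3, and were collected at passage 3. Day 3 and day 6 cells were MEFs, also from E13.5 embryos, with Rosa26-M2rtTA and Col1a1-OKSM. They were given doxycycline, which switches the cassette on, together with ascorbic acid. Day 3 cells were a bulk population and day 6 cells were sorted for SSEA1. Crosslinking used 1% formaldehyde for every library. ES cells were of the V6.5 line in 2i medium. The cells labelled TKO, a name the labels do not spell out, are also given as V6.5 in 2i, without doxycycline (0 h) or with it for 24 h. The H3K27ac antibody was used on MEF (2 libraries), ES (2), TKO 0 h (3) and TKO 24 h (3). The KLF4 antibody was used on 3 libraries of day 3, 4 of day 6 and 4 of ES cells. For Hi-C there were 2 libraries of each cell type, MEF and ES. The study's design text speaks of biological replicates, but no label says which libraries came from separate cultures, so p-values measure the spread between libraries, which may be technical.

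The 21 HiChIP libraries held 48.7 to 181 M contacts, and 1.98 to 7.46 M on chromosome 15. The deposited CPM divides a count by the contacts of the same chromosome and library. For Hi-C no contact totals could be read from the values, so that depth is unknown there, and the scale of the Hi-C signal is not given in the sources used here. Libraries 1 and 3 of TKO 24 h, libraries 1 and 2 of ES KLF4 and libraries 3 and 4 of ES KLF4 did not differ beyond sampling noise (chi-square p = 0.0991, 0.239 and 0.989), unlike other libraries of their groups. The TKO 24 h pair was counted as 1 sample in the test. The ES KLF4 pairs entered no test, because no KLF4 comparison had a locus interaction in both lists. Of the marker genes, all 6 ES cell markers with a promoter in the RefSeq table had more H3K27ac interactions in ES than in MEF (23 against 1 for Nanog, 17 against 0 for Pou5f1), and 3 of 4 fibroblast markers had more in MEF (8 against 0 for Vim, 9 against 0 for Prrx1). Over all its promoters, 31% had more in ES and 14.6% more in MEF.

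The lists differed widely in how much of the locus they held. The MEF H3K27ac list had 139 locus interactions and the ES H3K27ac list had 43, although the MEF libraries had fewer contacts on chromosome 15 (3.14 and 4.43 M against 6.91 and 6.99 M in ES). The TKO lists had 21 at 0 h and 20 at 24 h. KLF4 HiChIP gave 6 at day 3, none at day 6 and 16 in ES. The Hi-C lists had 47 for MEF and 91 for ES. As a share of each chromosome 15 list these were 3.82% in MEF H3K27ac, 1.03% in ES H3K27ac, 0.440% and 0.447% in TKO at 0 h and 24 h, 0.494% at day 3, 1.23% in ES KLF4, 0.540% in MEF Hi-C and 0.709% in ES Hi-C. The day 6 list was short everywhere, with 198 interactions on chromosome 15, and when the day 3 and ES KLF4 lists were reduced to its length they kept 3 and 4 locus interactions. A pair of bins that a list lacks is not shown to be without contacts: it can have failed the authors' count or p-value filter.

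**Figure D1:**
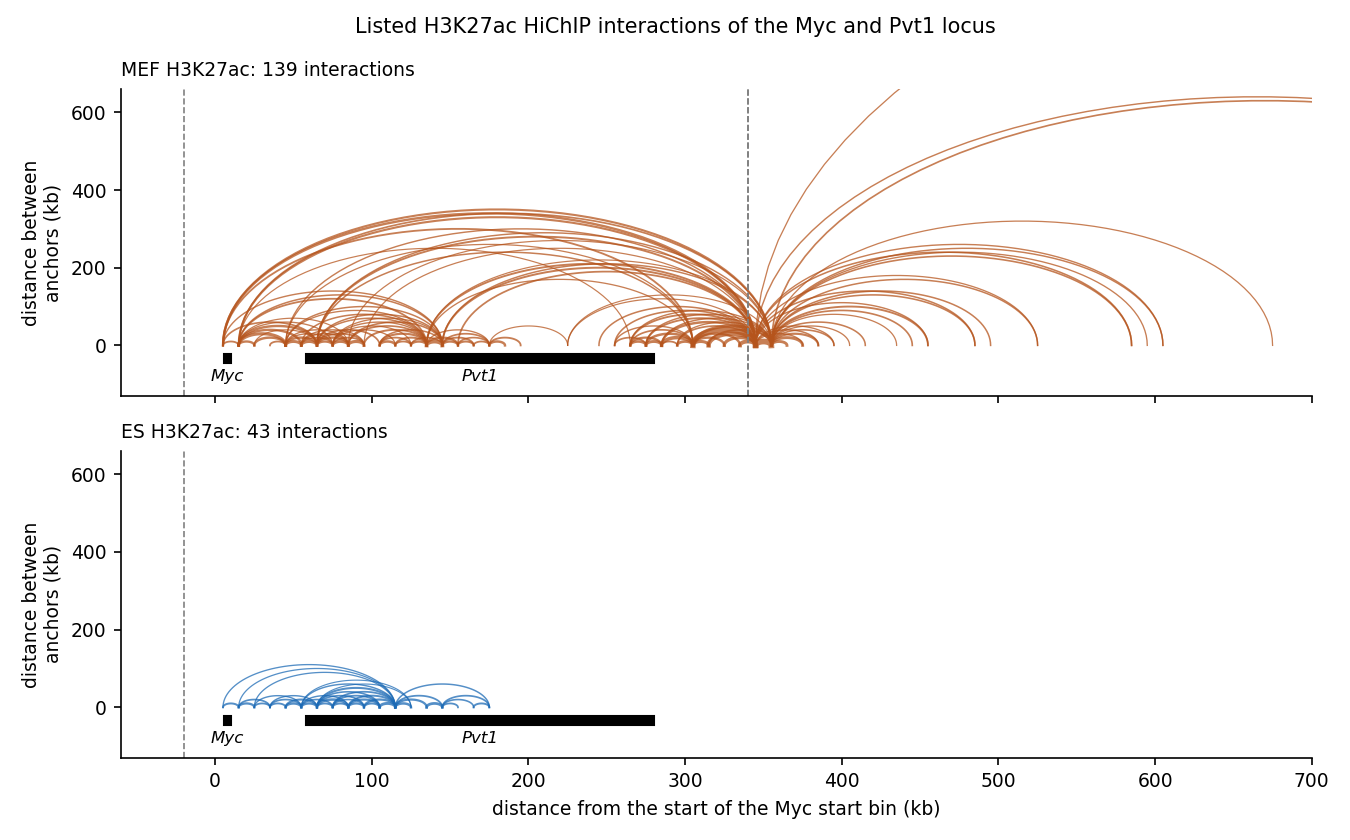
Each arc is 1 listed H3K27ac interaction of the locus in MEF (top, 139) and ES (bottom, 43), drawn between its anchors along the x axis (kb from the start of the Myc start bin) with its height equal to the distance between the anchors in kb and its width rising with the mean CPM. Dashed lines are the domain boundaries deposited for that cell type, black bars are the genes, and the 3 longest MEF arcs run past the edge of the plot; the MEF arcs converge at 340 and 350 kb, where ES has none, and the ES arcs end within 180 kb.

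In MEF the distal pair was the main meeting point of the locus. It took part in 60 of the 139 interactions (43.2%): the bin at 340 kb had 30 and the bin at 350 kb had 31, with 1 interaction between them. By number of listed interactions the bin at 350 kb ranked 1 of 2326 bins on chromosome 15 and 3 of 43848 bins in the MEF list. These counts restate how the region was chosen and are given with no test. The region's edges were sharp on the Myc side, where the 2 bins before the Myc start bin had no interaction in any of the 9 lists. On the other side the last bin inside the region had 1 MEF H3K27ac interaction and the next bin outside had 2.

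The distal pair reached to both sides. On the Myc side it had 32 interactions with 20 different bins, which ran from both Myc bins through Pvt1 to the stretch past it. To the other side it had 27, of which 26 ended beyond the region. Its strongest contact was within the pair, with 65 and 132 counts in MEF libraries 1 and 2 (25.2 ± 6.45 CPM, SD, n = 2). The bin at 340 kb contacted the bin at 300 kb, just past Pvt1, with 72 and 112 counts (24.1 ± 1.69 CPM). It contacted the bin at 310 kb with 61 and 80 counts (18.7 ± 0.95 CPM). These were the 3 strongest MEF interactions of the locus, and each was seen in both libraries.

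The bin at 350 kb had a weaker contact with each of its other partners than with the bin at 340 kb. It met the bin at 300 kb with 29 and 70 counts (12.5 ± 4.65 CPM). It met the bins at 370, 360 and 380 kb with 40 and 45, 26 and 64, and 20 and 44 counts (11.4, 11.4 and 8.15 CPM). None of the 60 interactions of the distal pair was in the ES H3K27ac list. For 54 of them the ES list held other chromosome 15 interactions of the same distance, and 50 of the 54 had a MEF mean CPM above the lowest that ES listed at that distance, as had 78 of the 79 other MEF interactions of the locus. The lowest listed mean CPM was close in MEF and ES (6.00 and 6.03 at 10 kb, 3.17 and 3.02 at 40 kb). A pair listed in MEF thus mostly clears the ES value by construction, and nothing is read from these counts.

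On the Myc side the bin at 340 kb, the nearer of the pair, had the stronger contacts. The distal bins shared 12 partner bins there, and for 12 of 12 the mean CPM was higher with the bin at 340 kb. Beyond the region, where the bin at 350 kb is the nearer, each shared partner had the higher mean CPM with it. The bin at 370 kb gave 11.4 CPM with the bin at 350 kb and 4.01 with that at 340 kb. The bin from 62960001 gave 5.59 and 4.37 CPM. With bins of Pvt1 the contacts of the bin at 340 kb ran from 3.44 CPM (bin at 220 kb) to 9.33 CPM (bin at 280 kb). They were 8.95 and 7.59 CPM with the Myc start and end bins. Between these Pvt1 values, the bins at 60, 130 and 140 kb gave 19 and 33, 21 and 30, and 20 and 33 counts (6.75 ± 0.99, 6.73 ± 0.07 and 6.91 ± 0.77 CPM). Just before the bin at 340 kb, the bins at 330 and 320 kb gave 47 and 79 and 35 and 65 counts (16.4 ± 2.04 and 12.9 ± 2.51 CPM). The bin at 300 kb was a further meeting point in MEF, with 14 interactions that reached from the Myc start bin to the distal pair, and had none in any ES or TKO HiChIP list. Inside Pvt1 the MEF bins with most interactions were those at 130 kb with 16 and at 60 and 140 kb with 14 each, where the ES H3K27ac list had 2, 9 and 5.

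The Myc promoter was among the partners of the distal pair. The Myc start bin had 6 listed partners in MEF, at 10, 60, 140, 300, 340 and 350 kb. The 3 farthest gave 16 and 34 counts at 300 kb (5.09 and 7.68 CPM), 30 and 37 at 340 kb (9.54 and 8.35 CPM), and 21 and 37 at 350 kb (6.68 and 8.35 CPM). The nearer partners gave 11 and 40 counts at 10 kb (3.50 and 9.03 CPM), 10 and 36 at 60 kb (3.18 and 8.13 CPM) and 13 and 20 at 140 kb (4.14 and 4.52 CPM). In library 1 the 3 farthest partners were the strongest, whereas in library 2 the adjoining bin at 10 kb was. In ES the Myc start bin had 2 partners. The neighbouring bin gave 48 and 49 counts (6.95 and 7.01 CPM), between the 2 MEF values of that pair. The bin at 110 kb, inside Pvt1, gave 26 and 28 counts (3.76 and 4.0 CPM) and was not listed for the Myc start bin in MEF.

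**Figure D2:**
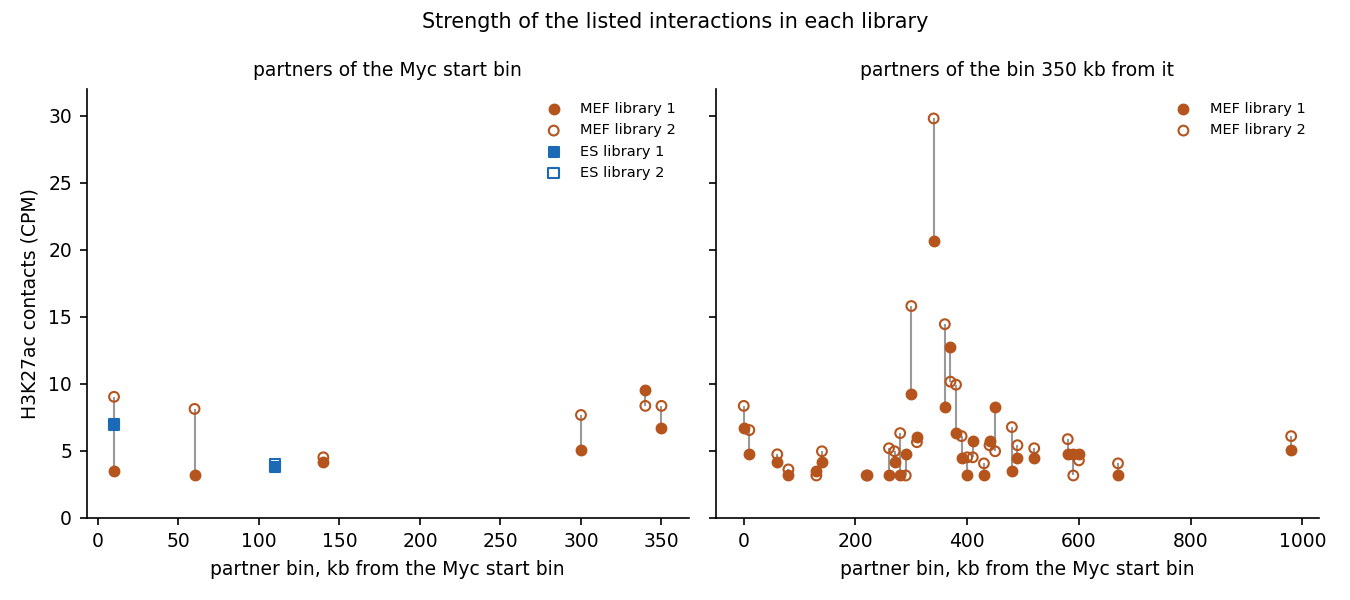
H3K27ac contacts in CPM (y axis, linear) of each listed partner of the Myc start bin (left) and of the bin at 350 kb (right), by the partner's distance in kb from the Myc start bin; points are libraries and grey lines join the 2 MEF libraries. At the Myc start bin MEF contacts at 340 and 350 kb reach 6.68 to 9.54 CPM where ES lists none, and the bin at 350 kb has 31 MEF partners and no ES partner.

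The bin with the end of Myc, which carries the last bases of the gene, also had listed contacts with both distal bins. It contacted the bin at 340 kb with 25 and 32 counts (7.59 ± 0.51 CPM) and the bin at 350 kb with 15 and 29 (5.66 ± 1.26 CPM). Unlike at the start bin, the strongest partner in both libraries was a near one, the bin at 40 kb, with 35 and 60 counts (12.3 ± 1.71 CPM). A contact with the bin at 300 kb was not listed. The 12 MEF partners of this bin and the 6 of the start bin summed to 75.7 and 84.9 CPM and to 32.1 and 46.1 CPM in libraries 1 and 2. In ES the listed contacts of these bins summed to 24.8 and 24.9 CPM over 4 partners and to 10.7 and 11 CPM over 2. These sums follow the number of partners listed, which includes the contacts that chose the region.

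The Pvt1 start bin behaved otherwise. In MEF it had no listed contact with the distal pair, although its neighbours at 40 and 60 kb did. It had 8 listed interactions in ES and 7 each in MEF and in TKO at either time. Its listed contacts summed to 55.0 and 50.8 CPM in the MEF libraries, 45.0 and 47.3 in ES, 43.9, 46.2 and 46.4 in TKO at 0 h, and 45.9, 47.1 and 44.8 at 24 h. The MEF libraries were the highest, and the 3 other groups ran from 43.9 to 47.3 CPM. Sums over listed pairs move with what was listed, so they describe the lists and not all contacts of a bin.

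Distances separated the H3K27ac lists. The median distance between anchors was 50 kb in MEF, 20 kb in ES, 30 kb in TKO at 0 h and 20 kb at 24 h, against 30 kb over the whole chromosome 15 list in each of these groups. Interactions of 100 kb or more made up 42 of 139 in MEF (30.2%, against 10.2% of the MEF chromosome 15 list) and 2 of 43 in ES (4.65%, against 8.97%). Interactions of 200 kb or more numbered 26 in MEF and none in ES or TKO, and 22 of the 26 touched the distal pair. Without the 60 interactions of the distal pair the MEF median was 30 kb.

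The 26 MEF H3K27ac interactions that ended beyond the region all started from the distal pair. Of these, both Hi-C lists also held the contact of the bins at 350 and 370 kb, and no other list held any. Their far anchors fell in 17 bins, none of which holds a RefSeq gene. The longest joined the bin at 340 kb to a bin 1280 kb away, from 63600001 to 63610000, with 12 and 16 counts (3.71 ± 0.14 CPM). The bin from 62960001 to 62970000 was reached from both distal bins. That contact had 14 and 19 counts from the bin at 340 kb (4.37 ± 0.12 CPM, 640 kb) and 16 and 27 from the bin at 350 kb (5.59 ± 0.71 CPM, 630 kb).

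Most listed interactions rest on the authors' unadjusted p-value. In the authors' deposited table, 10 of the 139 MEF locus interactions had an FDR under 0.1, beside 1.84% of the whole MEF list, from which nothing is read because this list chose the region. The authors' deposited table has none at the locus for ES H3K27ac (5.9% of the whole list), TKO at 0 h (7.74%), TKO at 24 h (5.83%), day 3 KLF4 (0.535%) or ES KLF4 (0.199%). Of the 10 in MEF in the authors' deposited table, 9 touched the distal pair and the other joined the Myc start bin to the bin at 300 kb, with an FDR of 0.0163. By the authors' deposited table the FDR was 4.21e-06 for the Myc start bin and the bin at 340 kb, 2.48e-16 for the bins at 300 and 340 kb, and 0.00331 for the bin at 350 kb and the bin from 62960001. FDR is the authors' name for this value, which for these interactions is a constant multiple of the p-value. In MEF Hi-C 1 of 47 locus interactions had an FDR under 0.1 (28684 of 228083 in the whole list). In ES Hi-C none had (28050 of 318622 in the whole list).

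The deposited domains (TADs) placed a border near the distal pair in MEF only. The MEF domains ran from 61960001 to 62320000 and from 62320001 to 63320000, so the border as deposited lies directly before the bin at 340 kb. The bounds of the domains around the locus fall on steps wider than the 10 kb bins. The border is thus not placed to a single bin, and the counts of crossings rest on its deposited position. The ES domain ran from 61960001 to 62800000 with no border inside the region. In MEF 32 H3K27ac interactions crossed the position of this border, all of them contacts of the distal pair with the Myc side. In Hi-C 3 MEF and 4 ES interactions crossed it, and in the other lists none did. There is 1 set of domains per cell type, so the difference has no replicate check.

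Lists overlapped as follows, counting an interaction as shared when both anchors fell in the same bins. Of the 139 MEF H3K27ac interactions, 24 (17.3%, 95% Wilson interval 11.9 to 24.4) were also in the ES list, and 115 were not. Over the whole MEF list 70.6% of interactions were not in the ES list. Of the 43 ES interactions, 24 (55.8%, 41.1 to 69.6) were also in the MEF list and 19 were not, where over the whole ES list 76.3% were not in the MEF list. In the edgeR fit of interactions in both lists 32% were called over all of them (adjusted p-value under 0.05). Calls at the locus are not given, because this contrast chose the region. The share differed within the MEF list: 0 of 60 interactions of the distal pair and 24 of the other 79 (30.4%) were in the ES list. This division follows from the choice of the region and was made after the values were seen. The 24 interactions in both lists had anchors at most 40 kb apart, and 16 of them had a higher mean CPM in MEF, while the median over the 24 was 6.78 CPM in MEF and 7.05 in ES. Both MEF libraries lay above both ES libraries for 8 of the 24 and below them for 3. The intervals cover counting error only, and interactions that share a bin are not independent. Nothing is read from the intervals between MEF and ES H3K27ac, because these lists chose the region.

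ES contacts gathered inside the first part of Pvt1, a stretch where MEF had contacts too. Over the whole gene 30 ES and 45 MEF interactions joined 2 bins of Pvt1. All 43 ES H3K27ac interactions lay within 180 kb, from the Myc start bin to the bin at 170 kb, whereas 81 of the 139 in MEF had an anchor past that bin. The ES bin with most interactions was at 110 kb (62090001 to 62100000, inside Pvt1), with 13. The strongest ES contact joined it to the bin at 100 kb, with 78 and 80 counts (11.4 ± 0.11 CPM). The next were the bins at 130 and 140 kb with 66 and 82 counts (10.6 ± 1.54 CPM) and the bins at 60 and 80 kb with 68 and 64 (9.5 ± 0.49 CPM). The 3 longest ES interactions all ended at the bin at 110 kb and started from the Myc start bin, the Myc end bin (24 and 26 counts) and the bin at 20 kb (22 and 30 counts).

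**Figure D3:**
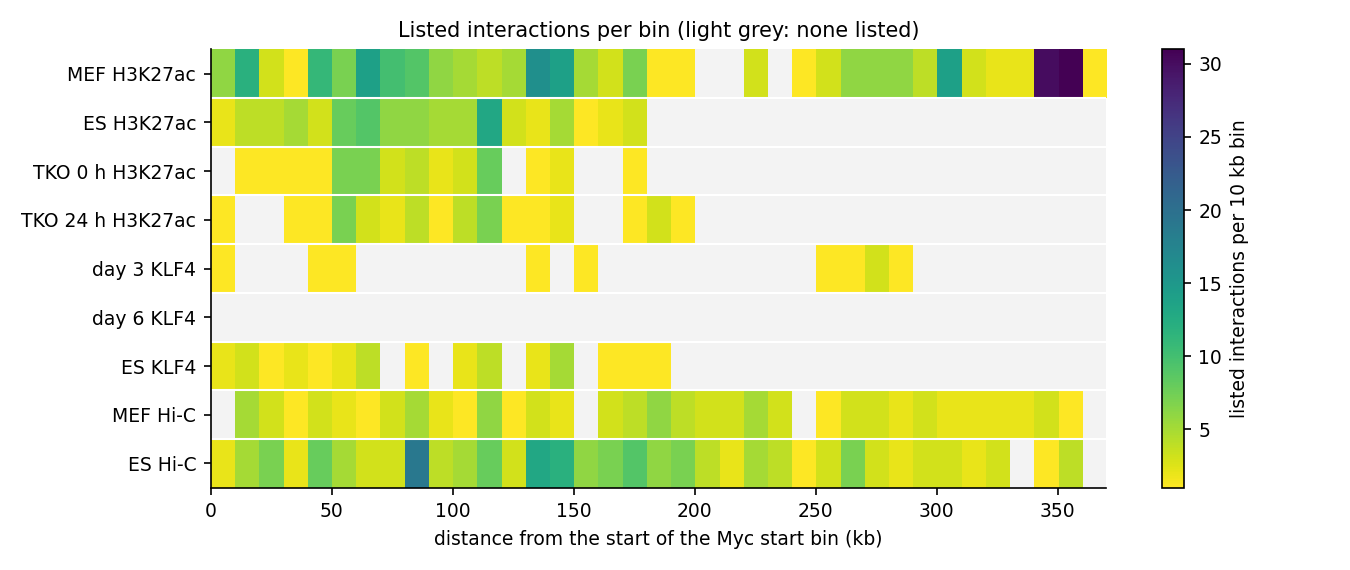
Number of listed interactions that touch each 10 kb bin of the region (colour scale from 1 to 31, light grey for none) in each of the 9 lists (rows), by distance in kb from the start of the Myc start bin (x axis). H3K27ac and KLF4 lists of ES and TKO cells are empty past 200 kb, the MEF H3K27ac list has 30 and 31 at 340 and 350 kb, and both Hi-C lists cover most bins.

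The TKO cells, which the labels give as the same ES line, held a similar stretch of the locus with fewer interactions. At 0 h, 19 of the 21 TKO interactions (90.5%, 71.1 to 97.3) were in the ES list, beside 62.8% over the whole TKO 0 h list. In the other direction 19 of the 43 ES interactions (44.2%, 30.4 to 58.9) were in the TKO 0 h list and 24 were not, while over the whole ES list 22.4% were not. Of the MEF interactions 13 of 139 (9.35%, 5.55 to 15.3) were in the TKO 0 h list and 126 were not, against 67.8% of the whole MEF list, and these 13 were 61.9% of the TKO 0 h locus interactions (40.9 to 79.2), beside 21.0% over the whole list. The MEF list chose the region and is dense there, so nothing is read from the shares between the MEF and TKO 0 h lists. The Myc start bin had no listed interaction in TKO at 0 h. The lowest mean CPM listed on chromosome 15 at 10 kb was higher in TKO at 0 h than in ES (8.01 against 6.03 CPM), which bears on the shortest pairs only, and the part of this filter in the difference was not tested.

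The bin at 110 kb, the busiest of the ES list, was also among the busiest in TKO. It had 8 interactions at 0 h and 7 at 24 h, and the Pvt1 start bin had 7 at both times. The authors' annotation of the TKO bins names Myc and Pvt1 at their start bins and marks an H3K27ac peak in the Pvt1 start bin at 0 h and 24 h but none in the Myc start bin at either time. Of the 18 region bins that occur in a TKO list, 5 carried a peak at 0 h and 6 at 24 h. The bin at 180 kb (62160001 to 62170000) was the 1 that carried a peak at 24 h only. It had no listed interaction at 0 h and 3 at 24 h. Of these, the contact with the bin at 170 kb had 31, 44 and 30 counts in libraries 1, 2 and 3 (10.1 ± 1.06 CPM), and that with the bin at 190 kb had 22, 34 and 28 (8.04 ± 0.27 CPM). Both span 10 kb, where the lowest mean CPM listed on chromosome 15 was 8.01 at 0 h and 7.01 at 24 h. The part of this filter in the difference was not tested.

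Between 0 h and 24 h of doxycycline some TKO interactions entered or left the lists. Of the 21 interactions at 0 h, 13 (61.9%, 40.9 to 79.2) were listed at 24 h and 8 were not, against 27.4% of the whole list. Of the 20 at 24 h, 13 (65.0%, 43.3 to 81.9) were listed at 0 h and 7 were not, against 19.6% of the whole list. The contact between the Myc and Pvt1 start bins was among the 7, with 9, 14 and 11 counts (3.25 ± 0.07 CPM, 50 kb), close to the CPM cutoff of 3. The Myc end bin with the Pvt1 start bin (26, 17 and 17 counts) and the bins at 60 and 140 kb (19, 12 and 12 counts) were listed at 0 h only. Listed at 24 h only was the contact of the Pvt1 start bin with the bin at 100 kb (18, 17 and 15 counts).

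None of the 13 interactions in both TKO lists was called by edgeR's quasi-likelihood test, where 2.8% of all interactions tested were. None had an unadjusted p under 0.05 in edgeR or DESeq2, and DESeq2 gave no adjusted p for them. Their median log2 fold change from 0 h to 24 h was 0.03, beside 0.01 over all interactions tested, and single values ran from -0.19 to 0.43. The Pvt1 start bin with the bin at 60 kb had 48, 24 and 35 counts at 0 h (9.26 ± 2.16 CPM) and 31, 43 and 40 at 24 h (11 ± 0.84 CPM), and the libraries of both times overlapped. Its log2 fold change was 0.33 (SE 0.19, edgeR adjusted p = 0.461). The largest log2 fold change, 0.43 (SE 0.25, edgeR adjusted p = 0.528), was that of the Pvt1 start bin with the bin at 80 kb, with 15, 18 and 16 counts against 17, 21 and 18. For the 13 interactions the SE was 0.19 to 0.26, and the same test recovered 74.5% of 2-fold changes set in simulated counts over the whole table, so smaller changes could have been missed. For 12 of the 13 the library values of 0 h and 24 h overlapped.

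**Figure D4:**
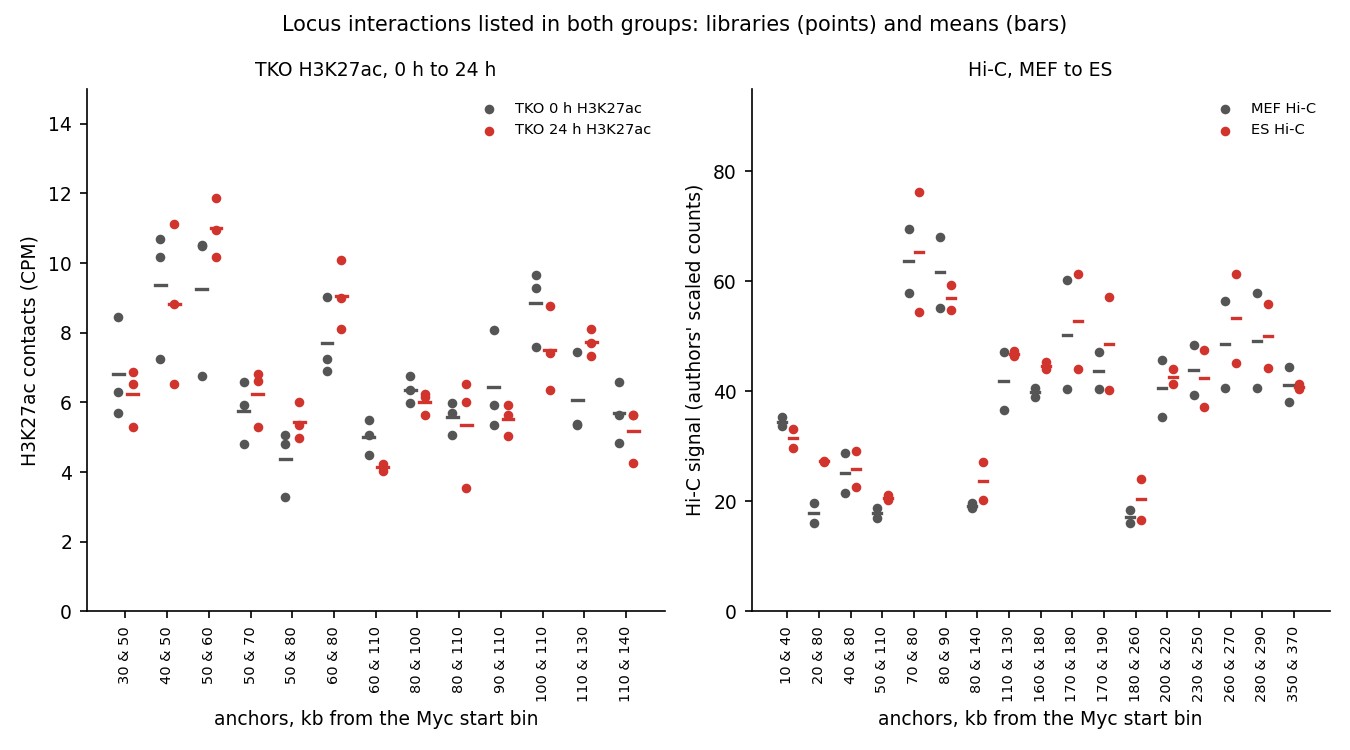
Locus interactions listed in both groups of a comparison, with 1 point per library and a short bar at the mean; the x axis names the 2 anchors by their distance in kb from the Myc start bin. On the left (H3K27ac CPM in TKO at 0 h and 24 h, 13 interactions) the libraries of both times overlap for 12, and on the right (Hi-C signal in MEF and ES, 17 interactions) those of both cell types overlap for 12.

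KLF4 HiChIP listed few locus interactions and none in common between stages. At day 3 there were 6. The contacts of the bins at 260 and 270 kb (21, 57 and 61 counts, 9.23 ± 1.01 CPM), 270 and 280 kb (18, 44 and 52 counts, 7.61 ± 0.56 CPM) and 250 and 270 kb (18, 35 and 40 counts, 6.54 ± 1.34 CPM) lay at the end of Pvt1, where no ES or TKO HiChIP list had an interaction. The bin at 270 kb (62250001 to 62260000) had all 3 and was the busiest of the day 3 list. Between the bin at 40 kb and the Pvt1 start bin there were 17, 43 and 59 counts (7.72 ± 0.18 CPM).

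One day 3 interaction reached from the Myc start bin to the other side, away from Pvt1. It joined the Myc start bin to the bin from 61530001 to 61540000, 450 kb before it, with 8, 18 and 22 counts (3.24 ± 0.30 CPM). This is the 1 locus interaction of the 383 with an anchor before the region. It crosses the domain border before 61960001 that the MEF and ES domain sets share. The far bin holds no RefSeq gene, and with a CPM near 3 the contact lies close to the authors' cutoff.

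In ES cells the overlap of KLF4 and H3K27ac contacts at the locus was near that of the whole list. Of the 16 ES KLF4 interactions, 13 (81.3%, 57.0 to 93.4) were in the ES H3K27ac list, beside 74.0% over the whole KLF4 list, and these were 30.2% (18.6 to 45.1) of the 43 H3K27ac interactions, beside 24.1% over that list. The busiest KLF4 bin was at 140 kb (62120001 to 62130000) with 5. The strongest contact, of the bins at 130 and 140 kb, had 40, 13, 27 and 34 counts (8.43 ± 2.05 CPM over 4 libraries). The bins at 100 and 110 kb had 35, 25, 21 and 24 counts (8.42 ± 2.75 CPM). The Myc start bin had 2 KLF4 partners, its neighbour with 32, 24, 15 and 32 counts and the bin at 20 kb with 21, 9, 16 and 17. Libraries 1 and 2 stood above libraries 3 and 4 in mean CPM for 15 of the 16 interactions, so that the SD over 4 libraries mixes a difference between these pairs.

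Day 3 and ES shared no KLF4 interaction at the locus. None of the 6 at day 3 (Wilson interval 0 to 39.0) was in the ES list, where over the whole day 3 list 68.9% were not. None of the 16 in ES (0 to 19.4) was in the day 3 list, where 70% of the whole ES list was not. The shares over the whole lists were 31.1% and 30.0%, of which the first lies inside and the other above the interval at the locus. Of the 6 at day 3, 5 (83.3%, 43.6 to 97.0) were in the MEF H3K27ac list, beside 46.0% over the whole day 3 list, and they were 3.60% (1.55 to 8.14) of the 139, beside 17.9% over the whole MEF list. The antibodies differ between these 2 lists. The MEF list also chose the region and is dense there, so nothing is read from these shares. No KLF4 interaction of the locus was in both lists of day 3 and ES, day 6 and ES, or day 3 and day 6, so none could be tested for strength.

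In the Hi-C lists, made without an antibody, the distal pair was not a busy place. The bin at 350 kb had 1 listed interaction in MEF Hi-C and 4 in ES Hi-C, and the bin at 340 kb had 3 and 1. No Hi-C interaction of the distal pair was longer than 60 kb. In MEF the distal pair met the last bin of Pvt1, at 280 kb, and the bins just past it: the bin at 340 kb with the bin at 300 kb had 19 and 17 counts (signal 25.6 and 22.3), with the bin at 290 kb 18 and 14, and with the bin at 280 kb 14 and 13. In ES the bin at 350 kb met the bins at 300 and 310 kb with 21 and 21 and with 22 and 26 counts, and the bin at 320 kb with 30 and 28. The pair of the bins at 350 and 370 kb was the 1 interaction of the distal pair in both Hi-C lists. It had 33 and 29 counts in MEF (signal 41.2 ± 4.53, SD, n = 2) and 34 and 41 in ES (40.9 ± 0.56), and the libraries overlapped (log2 fold change -0.11, SE 0.26, edgeR adjusted p = 0.999).

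Hi-C listed more contacts for the end bin of Myc than for its start bin. The end bin had 5 interactions in each cell type, where the median chromosome 15 bin with any interaction had 3 (MEF) and 5 (ES). The Myc start bin had no MEF Hi-C interaction and 2 in ES, with the bins at 80 kb (18 and 21 counts) and 130 kb (15 and 21 counts). The longest MEF Hi-C interactions ran from the Myc end bin to the bin at 130 kb, over 120 kb (15 and 18 counts, signal 21.9 ± 2.41), and to the bin at 110 kb, over 100 kb (12 and 16 counts). The longest in ES, over 170 kb, joined the bins at 20 and 190 kb (signal 16.5 ± 1.95). The busiest bins were at 110 kb in MEF with 6, tied with the bin at 180 kb, and at 80 kb in ES (62060001 to 62070000) with 19. The ES Hi-C list is longer than that of MEF, and it kept 61 of its 91 locus interactions when it was reduced to the length of the MEF list.

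Of the 47 MEF Hi-C interactions, 17 (36.2%, 24.0 to 50.5) were in the ES Hi-C list and 30 were not, against 44.1% of the whole list. Of the 91 in ES, 17 (18.7%, 12 to 27.9) were in the MEF list and 74 were not, against 60% of the whole list. None of the 17 was called by edgeR, where 0.0322% of all interactions tested were, and none had an unadjusted p under 0.05 in edgeR or DESeq2, which also called none. Their median log2 fold change from MEF to ES was -0.02, beside 0.00 over all, and single values ran from -0.23 to 0.50. The largest was that of the bins at 20 and 80 kb, with 12 and 15 counts in MEF (signal 17.9 ± 2.48) and 23 and 27 in ES (27.3 ± 0.15). The libraries did not overlap there, with a log2 fold change of 0.50 (SE 0.30, edgeR adjusted p = 0.925). The contact of highest signal in both lists, of the bins at 70 and 80 kb inside Pvt1, had 43 and 53 counts in MEF and 64 and 54 in ES. Its log2 fold change was -0.09 (SE 0.23, edgeR adjusted p = 0.999). For the 17 interactions the SE was 0.23 to 0.31. The same edgeR test recovered only 28% of 2-fold changes set in simulated counts over the whole table, so most changes of that size could have been missed.

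H3K27ac and Hi-C lists of the same cells overlapped in part. In MEF 24 of the 139 H3K27ac interactions (17.3%, 11.9 to 24.4) were in the Hi-C list, beside 47.1% over the whole H3K27ac list, and they were 51.1% (37.2 to 64.7) of the 47 Hi-C interactions, beside 12.6% over that list. In ES 20 of the 43 (46.5%, 32.5 to 61.1) were, beside 51.2% over the whole list, and they were 22% (14.7 to 31.5) of the 91, beside 12.1% over the whole Hi-C list. The signal cutoff of 15 in Hi-C and the CPM cutoff of 3 in HiChIP stand on different scales, and their part in the overlap was not tested. The MEF H3K27ac list chose the region and is dense there, so nothing is read from the MEF shares.

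Genes listed for the Myc network, among them paralogs, partners and antagonists of Myc, had promoter bins in the RefSeq table for 13 of 13. Listed H3K27ac interactions at these promoters were more numerous in ES than in MEF for 9, in MEF for 1 and equal for 3, where over all promoters 31% had more in ES and 14.6% more in MEF, and the ES list is the longer. Mycn, the paralog of Myc that is active in ES cells, had 23 in ES and 0 in MEF, and the TKO lists had 16 at 0 h and 9 at 24 h. Max, the dimer partner of Myc, had 15 in ES and 0 in MEF, with 17 and 15 in the TKO lists. Mlx, the partner of the Mlxip branch of the network, was the 1 with more in MEF, with 3 against 2. In the edgeR tests 0 of 65 interactions of these promoters were higher and 1 was lower at 24 h than at 0 h in TKO, where 2.8% of all passed in either direction. In Hi-C 0 of 43 passed between MEF and ES, where 0.0322% of all did. In H3K27ac 0 of 15 in both lists were higher and 2 were lower in ES than in MEF, where 32% of all passed in either direction. The other factors of the cassette had more H3K27ac interactions in ES than in MEF at their own promoters, with 17 against 0 for Pou5f1, 6 against 0 for Sox2 and 4 against 2 for Klf4. Of 12 neighbour symbols on chromosome 15, 1 had a promoter in the table, Gsdmc3, with no listed interaction in any list.

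The genes whose annotated bins had listed interactions most like those of the Myc start bin over the 9 lists were Smim3, Ptpn21, Cd276, Myo5c and Txndc5, of 12693 genes compared. Likeness was the Euclidean distance in log2(listed interactions + 1), from 1.57 for Smim3 to 1.78 for Txndc5. Smim3 had 8 interactions in MEF H3K27ac, 2 in ES H3K27ac, 1 and 2 in TKO at 0 h and 24 h, none at day 3 and day 6, 2 in ES KLF4, and 0 and 2 in MEF and ES Hi-C. For Myc the numbers in the same order were 6, 2, 0, 1, 1, 0, 2, 0 and 2.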

How the data were processed

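The region, the genes and the lists of other genes were chosen with earlier results of these data known. Per the file headers, the authors deposited 9 interaction lists that give, for each pair of 10 kb bins and library, a raw count, a CPM value (called a signal here for Hi-C, since its scale is not a contact total) and a ratio to an expected count, with a p-value and an FDR per interaction. The deposited domain lists give bounds and a score. Bowtie2 2.2.3 and mm10 are named in the submitters' processing notes, and the contact caller is not given in the sources used here. As the values show, the authors kept interactions with a p-value under 0.1 (0.01 in Hi-C) and a CPM of about 3 or more (a signal of 15 or more in Hi-C), with lower values in some KLF4 libraries. The ratio and the score were not used.

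Every interaction touching the region was taken from each list with Python 3.11.15, pandas 2.3.3, numpy 2.4.6 and scipy 1.17.1, and matplotlib 3.10.9 drew the plots. Distance is between bin starts. Counts of interactions in both lists of a comparison were fitted over the whole lists with edgeR 4.0.16 in R 4.3.3 (quasi-likelihood test, filterByExpr, TMM factors, library sizes from contact totals or, for Hi-C, summed counts, Benjamini-Hochberg adjustment, call at 0.05). The test speaks only of interactions in both lists. Libraries whose counts, over interactions at 2 times the CPM cutoff or more, did not differ beyond sampling noise (chi-square p of 0.05 or more) were summed where other pairs of their group did differ; no pair of the 4 day 6 libraries differed, and these were kept apart. Alternatives were totals without TMM, DESeq2 1.42.0, no filter, libraries separate, the replicate block and leaving out each library. The edgeR step, tested on simulated data with 200 interactions set to 2-fold, recovered 74.5% of them over 67707 TKO interactions and 28% over 124251 Hi-C interactions. Named in the text were the start bins of Myc and Pvt1, the bin that chose the region, the busiest bin of each list, the 3 strongest and 3 longest interactions per list, the 5 strongest of the chosen bin and the 5 genes most like Myc. Further interactions were named after their values were seen. The tables hold no promoter entry for Myc or Pvt1. Of the columns with values per sample, 0 belonged to no sample of the series.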

Additional observations from a re-analysis of the deposited data

Results flagged for a closer look

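Of 20 ES KLF4 values of the locus checked for a library far from the other 3, 1 stood out, and about 1 in 20 is what chance gives. It was the contact of the bins at 30 and 40 kb from the Myc start bin (62010001 and 62020001), between Myc and Pvt1, with 13.1 CPM in library 2 and 6.35, 6.62 and 7.46 CPM in the others. The counts were 27, 28, 20 and 28 in libraries 1 to 4, and library 2 has the fewest contacts on chromosome 15.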

How the results depend on the processing

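Lists rest on filters the authors chose, so the counts move with them. With only the interactions above each list's median CPM the locus had 79 interactions in MEF H3K27ac, 6 and 8 in TKO at 0 h and 24 h, 9 in ES KLF4, 28 in MEF Hi-C and 43 in ES Hi-C, and reduction to the length of the day 6 list left 4 in ES KLF4 and 3 at day 3. These follow from the shorter lists. A tolerance of 1 bin at each anchor raised the shares, as the construction must. It gave 33.8% of MEF H3K27ac in ES (42.9% over the whole list) and 90.7% the other way, 72.1% of ES H3K27ac in TKO 0 h (93.2% over the whole list), 26.6% of MEF in TKO 0 h and 95.2% the other way, 90.5% of TKO 0 h in 24 h and 85.0% the other way, 25.0% of ES KLF4 in day 3, 10.1% of MEF H3K27ac in day 3 KLF4, 100% of ES KLF4 in ES H3K27ac and 79.1% the other way, 93.6% of MEF Hi-C in ES Hi-C and 64.8% the other way, 54.0% of MEF H3K27ac in MEF Hi-C and 83.0% the other way, and 95.3% of ES H3K27ac in ES Hi-C and 42.9% the other way. Above the median CPM 20% of ES H3K27ac were in TKO 0 h (80.7% over the whole list), 100% and 83.3% of TKO 0 h in ES and MEF H3K27ac, 100% of day 3 KLF4 in MEF H3K27ac, 27.9% of ES Hi-C in MEF Hi-C and 32.6% of ES Hi-C in ES H3K27ac. Of the 20 shares, the others stayed within the interval of the share reported.

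No locus interaction was called in TKO or Hi-C under any alternative that gave an adjusted p, and leaving out each library in turn gave 0 to 0 calls. DESeq2 gave no adjusted p for the 13 TKO interactions. Without TKO 0 h library 1, 2 of the 13 had an unadjusted p under 0.05. Calls over all interactions ranged from 269 (DESeq2) to 3202 (totals without TMM) around 1894 in TKO, and from 0 (DESeq2) to 113 (without ES library 2) around 40 in Hi-C. Totals without TMM moved the TKO median log2 fold change over all interactions from 0.01 to -0.10, and 5 in place of 8 of the 13 were then above 0. The sign turned for 3 interactions named, none of them called. In TKO the bins at 40 and 50 kb (0.08) gave -0.022 on totals without TMM, and -0.15 (without 24 h library 2) to 0.26 (without 24 h library 3) when 1 library was left out, with -0.08 without 0 h library 1. In Hi-C the bins at 70 and 80 kb (-0.09) ran from -0.34 without ES library 1 to 0.17 without ES library 2, with 0.07 without MEF library 2. The bins at 180 and 260 kb (0.16) ran from -0.14 without ES library 2 to 0.37 without ES library 1. The replicate block gave 0 locus calls in both comparisons and 2024 and 74 calls over all. No label ties these libraries across groups beyond their number. The correlations of same-numbered deviations were 0.0043, 0.0040 and -0.0092 in TKO and -0.0036 in Hi-C. They cannot show whether libraries were paired, because TKO libraries differed little beyond sampling noise and Hi-C had 2 libraries per cell type. The KLF4 comparisons had no locus interaction in both lists, so no alternative was run for them. Counts of 4 to 132 per interaction and library set wide errors, and an unlisted pair has no value at all.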
